A study of Canis lupus familiaris with 9 samples.

Results

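Neural precursor cultures grown from dog skin (SKN) were compared with neural precursor cultures grown from dog brain (Brain), 3 Affymetrix arrays against 3 out of the 9 in the series. The comparison was defined by the array titles, and it covers the 15947 genes named by the platform's table, each read from 1 of the 32205 probe sets. SKN cells came from skin biopsies of adult dogs having routine surgery and were kept without serum, with EGF, FGF and the B-27 supplement, first as floating spheres. Brain cells are labelled as brain-derived neural precursors, but the labels used here give no donor, brain region or medium for them, which leaves origin and medium confounded: the 2 cannot be told apart. The other 3 arrays are skin fibroblasts grown with serum (Fibroblast), which add to the estimate of the spread and are quoted beside the comparison only as levels. No culture was treated and no allele was altered. Whether replicates stem from separate dogs or cultures is not labelled. The p-values therefore set each difference against the spread among these arrays only, and whether that spread is one between dogs is not known.

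Brain neural precursors are dividing cells that can give rise to neurons and glia, and are usually recognised by the intermediate filament nestin (NES) and the transcription factor SOX2. Skin-derived precursors come from the dermis, where relatives of the hair follicle's mesenchyme and of the neural crest lineage grow as spheres under the same growth factors. Both are used as cell sources for transplantation into the nervous system, so the RNA they hold in culture is of interest beyond the few genes used to name them.

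Values are log2 signals, in the order of replicate 1, 2 and 3, and differences are SKN minus Brain with the standard error of limma's fit (n = 3 and 3). That error draws on the spread within all 3 groups, Fibroblast included, and is not the scatter of SKN and Brain alone. NCAM2, for example, had a standard error of 0.83 beside standard deviations of 0.41 in SKN and 0.23 in Brain. A gene is called when its Benjamini-Hochberg adjusted p, taken over every probe set, was under 0.05. NES read 6.89, 6.29 and 6.82 in SKN and 8.73, 8.31 and 7.96 in Brain, and was lower in SKN by 1.67 ± 0.23 (adjusted p = 0.00171). SOX2 read 4.89, 5.57 and 5.28 in SKN and 7.36, 7.16 and 5.34 in Brain and was not called, with Brain 3 among the SKN arrays. Brain 1 and Brain 2 read above every SKN array, so the lack of a call does not show equal SOX2 levels. The glial filament gene GFAP read 4.28, 4.51 and 4.63 in SKN and 4.94, 5.03 and 4.74 in Brain, and the migrating-neuron gene DCX read 3.99, 3.63 and 4.32 in SKN and 3.70, 3.75 and 3.75 in Brain. Neither GFAP nor DCX was called, and both stayed near or below the array medians of 4.715 to 4.786 in all 6 arrays. Over all genes 22.6% were called, 10.9% higher in SKN and 11.7% lower. Of 8 astrocyte markers 3 were higher and 2 lower (62.5% called), with 1 lower without Fibroblast 3, Brain 2, Brain 3, SKN 2 or SKN 3, and of 9 neuron markers 3 were higher and 1 lower (44.4%). The lower neuron marker, MAP2, read 3.84, 3.71 and 3.57 in SKN and 8.51, 9.50 and 9.38 in Brain, a difference of -5.42 ± 0.24. Over the 9 neuron markers the mean difference was -0.16. Of the 9 neural stem and progenitor markers measured, 2 were lower in SKN (NES and PAX6), 0 were higher and 7 were not called, a share of 22.2% that lies near that over all genes. The call of PAX6 ended in 5 of the 9 removals, each Brain array, SKN 2 and SKN 3 (adjusted p up to 0.0821). Without Brain 3 the list again held 2 lower members, although PAX6 was then not called. Of 8 markers of Schwann cells, neural crest and olfactory glia, 6 were lower in SKN, among them the neuregulin receptor ERBB3, the endothelin receptor EDNRB (by 5.15 ± 0.67) and the neurotrophin receptor NGFR (by 4.94 ± 0.54). Of 10 fibroblast and meningeal matrix markers 8 were higher in SKN. None of the 8 keratinocyte or the 8 microglia and leukocyte markers was called, and 1 keratinocyte marker was lower without SKN 1.

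The cultures differed widely. Of all genes 3608 were called (22.6%), 1744 of them higher in SKN (10.9%) and 1864 lower (11.7%), and 5743 had an unadjusted p under 0.05. Among the called genes, 969 were higher and 972 lower by at least 1 log2 unit, which is 2-fold, and 113 were higher and 84 lower by at least 4 log2 units. The 3 SKN and the 3 Brain arrays did not overlap in 6374 genes (40.0%), 3596 of them called. Agreement was common as well. For 11692 genes (73.3%) the 95% interval of the difference lay within 1 log2 unit of 0, and the median difference over all genes was 0.01. Of the called genes 2194 kept their call in each of the 9 fits that left out 1 array. In bulk RNA, fewer cells of a type and less RNA per cell cannot be told apart.

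**Figure D1:**
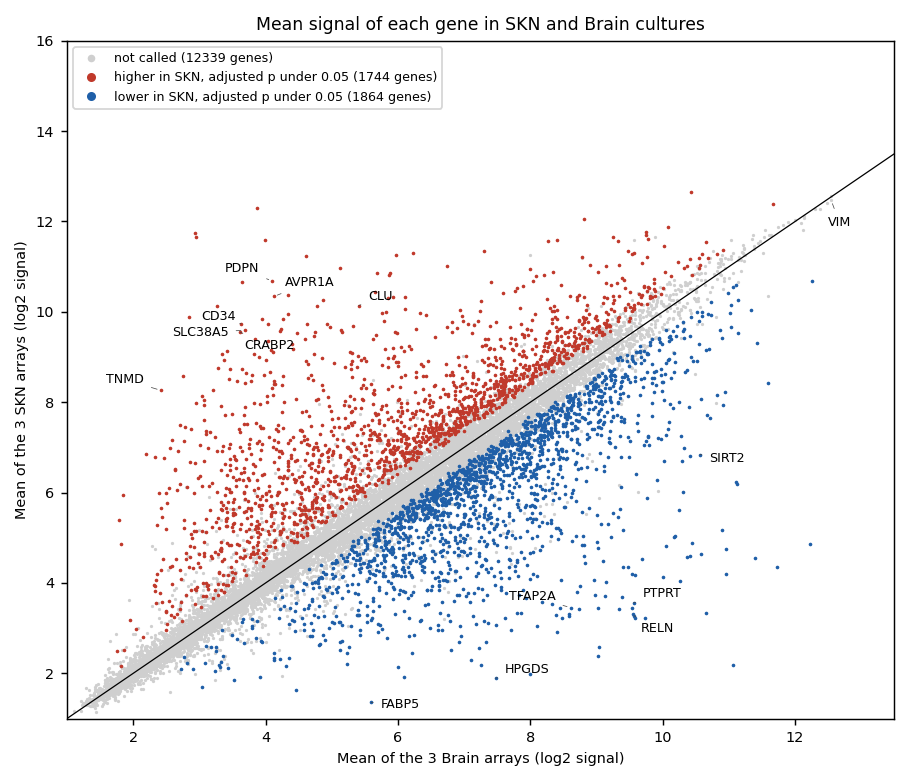
Mean log2 signal of each of 15947 genes over the 3 Brain arrays (horizontal) and the 3 SKN arrays (vertical), with called genes in red (1744 higher in SKN) and blue (1864 lower). Most genes lie near the diagonal, while genes such as CD34 and TNMD lie far above it and RELN and HPGDS far below.

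The genes that parted the cultures most cleanly were chosen by the gap between the nearest arrays of the groups, 30 in each direction, and all 60 kept their call in each removal of 1 array. Those higher in SKN include matrix and tendon-type genes, receptors for hormones and cytokines, and a retinoid carrier. CRABP2, which carries retinoic acid in the cell, read 9.42, 9.71 and 9.51 in SKN and 3.75, 3.49 and 3.61 in Brain. CD34, a sialomucin on stromal and blood progenitors, read 10.00, 9.48 and 9.72 in SKN and 3.82, 3.56 and 3.52 in Brain. In both genes the lowest SKN array stood more than 5 log2 units above the highest Brain array, and the differences were 5.93 ± 0.35 and 6.10 ± 0.16. PPL, a plaque protein that links desmosomes to filaments, read 9.64, 10.24 and 9.68 in SKN and 4.12, 4.24 and 4.43 in Brain, with a difference of 5.59 ± 0.18. TNMD, a membrane protein of tendon and ligament cells, read 7.67, 8.19 and 8.93 in SKN and 2.35, 2.37 and 2.52 in Brain, and differed by 5.85 ± 0.44. The growth factor FGF7, which dermal cells make for epithelium, read 8.44, 9.30 and 7.98 in SKN and 2.60, 2.72 and 2.94 in Brain. FGF7, TNMD and PPL each kept the arrays of the groups apart with no overlap, as the choice by gap requires. ADCYAP1R1, the receptor of the neuropeptide PACAP, read 9.20, 8.73 and 8.30 in SKN and 3.75, 3.45 and 3.74 in Brain and differed by 5.10 ± 0.22. The peptidase ANPEP, the elastic fibre proteins FBLN5 and MFAP4, and the procollagen processing enhancer PCOLCE were higher by 5.31 ± 0.16, 5.00 ± 0.20, 5.09 ± 0.37 and 5.06 ± 0.24.

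Fibroblast levels divided this group of 30. In 18 of the genes, all 3 Fibroblast arrays lay on the SKN side of the midpoint between the SKN and Brain means. In 9 genes, all 3 Fibroblast arrays lay on the Brain side. These 9 were CRABP2, CD34, PPL, AVPR1A, TNMD, VIT, ADCYAP1R1, PAMR1 and IL1R1. PPL, for example, averaged 9.85 in SKN, 4.26 in Brain and 4.64 in Fibroblast.

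Genes lower in SKN included guidance, adhesion and membrane proteins of neural tissue. RELN, a secreted protein that positions migrating neurons, read 3.16, 3.32 and 3.35 in SKN and 9.58, 9.77 and 9.35 in Brain, and differed by -6.29 ± 0.39. NTNG1, a netrin that anchors in the membrane of axons, read 3.55, 4.67 and 3.93 in SKN and 10.26, 10.16 and 10.35 in Brain, and differed by -6.20 ± 0.46. SHTN1, which couples the cytoskeleton of growth cones to traction, read 3.14, 3.84 and 3.29 in SKN and 9.35, 9.39 and 9.30 in Brain. In RELN, NTNG1 and SHTN1 every SKN array stood at least 5 log2 units below every Brain array. The adhesion genes NCAM2, CADM4 and CHL1 were lower by 6.10 ± 0.83, 5.69 ± 0.43 and 5.72 ± 0.94. PTPRT, a receptor phosphatase of neural cells, read 3.72, 3.45 and 3.51 in SKN and 9.34, 9.91 and 9.42 in Brain, and LGI3, a secreted neuronal protein, read 5.25, 4.73 and 4.71 in SKN and 10.16, 10.73 and 10.44 in Brain. TFAP2A, a transcription factor of neural crest, read 3.59, 3.47 and 3.31 in SKN and 8.64, 8.51 and 8.67 in Brain, and the retinoid receptor RXRG read 4.65, 3.61 and 4.27 in SKN and 9.51, 9.63 and 9.60 in Brain. All of these separated without overlap, which again follows from the choice by gap. SLC1A1, a glutamate carrier, differed by -5.49 ± 0.52, and the kainate receptor subunit GRIK2 by -5.25 ± 0.20. In 27 of these 30 genes all 3 Fibroblast arrays lay on the SKN side of the midpoint, and in 1, the growth factor gene FGF5, all 3 lay on the Brain side. The Fibroblast arrays were not alike in several of the genes. Fibroblast 1 stood above the other Fibroblast arrays in GFRA1 (7.99, 4.48 and 4.04), CDH19 (5.86, 2.14 and 2.82) and IL33 (7.29, 2.99 and 4.23). In others, such as PTPRT (3.28, 3.75 and 3.66), it did not.

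**Figure D2:**
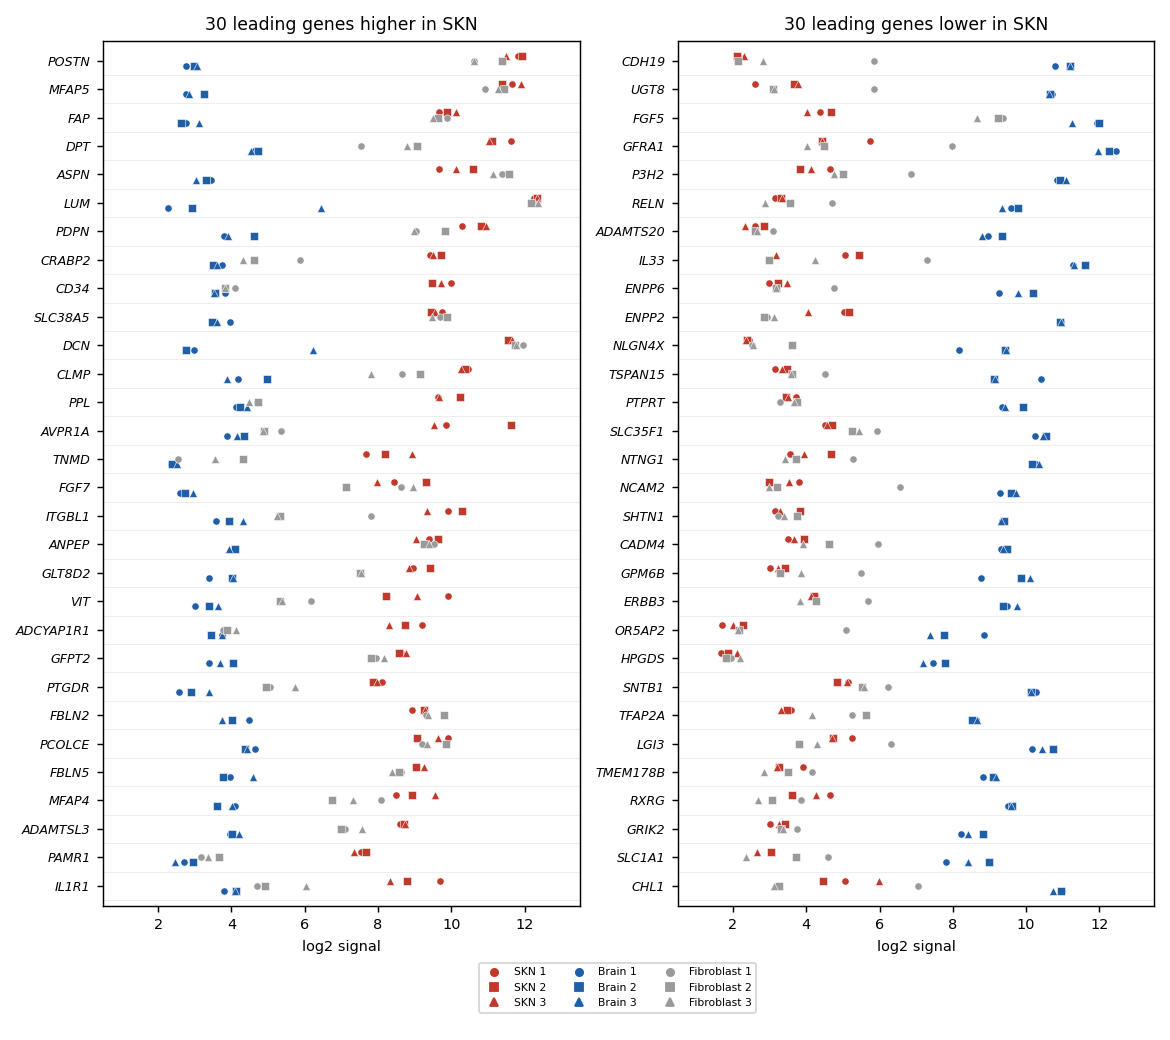
Log2 signal in every array for the 30 genes higher (left) and the 30 lower (right) in SKN with the widest gap between the nearest arrays of the groups, SKN in red, Brain in blue and Fibroblast in grey, with circles, squares and triangles for replicates 1, 2 and 3. By this choice the SKN and Brain arrays overlap in none of the 60 genes.

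Beyond single genes, calls were counted in families and function lists, of which 68 are plotted, and each count can be read against the share of all genes called, 10.9% higher and 11.7% lower. Nearly every called gene (3596 of 3608) had SKN and Brain arrays that did not overlap, as had 40.0% of all genes. Lack of overlap in a called gene named below therefore adds little to its call. Of 111 histone and DNA modifying enzymes, 43 were lower in SKN, 3 were higher and 65 were not called, with a median difference of -0.39 against 0.01 over all genes. The list's mean was 6.34, 6.25 and 6.22 in the SKN arrays and 6.76, 6.79 and 6.80 in the Brain arrays. The groups did not overlap in it, and the 3 Fibroblast arrays averaged 6.30, 6.35 and 6.30. Non-overlap of list means was not particular to this list. The cytosolic ribosomal list, for example, averaged 8.92, 9.06 and 8.99 in SKN and 8.64, 8.83 and 8.80 in Brain. SIRT2, a deacetylase of tubulin and histones that is abundant in myelinating glia, read 7.0, 6.89 and 6.63 in SKN and 10.54, 10.77 and 10.38 in Brain, a difference of -3.72 ± 0.14. CHD7, a chromatin remodeller needed in neural crest development, read 4.06, 3.95 and 4.44 in SKN and 7.65, 7.71 and 8.10 in Brain, a difference of -3.67 ± 0.29. TET1, which oxidises methylated cytosine, was lower by 2.39 ± 0.29, and EZH2, which methylates histone H3 for Polycomb silencing, by 2.23 ± 0.41. Of the 3 higher members SIRT5, a mitochondrial deacylase, differed most (by 0.92 ± 0.23), and its call ended without Brain 1, SKN 2 or SKN 3 (adjusted p up to 0.0942). Without SKN 3, 27 members were lower and 0 higher, and 1 was higher without Brain 1 or SKN 2.

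RNA-binding regulators and zinc finger genes also held more lower than higher members. Of 109 regulators of splicing and RNA stability, 27 were lower and 9 higher (median difference -0.27). PTBP2, the neural form of the polypyrimidine tract binding protein, read 7.88, 7.45 and 7.36 in SKN and 9.83, 10.16 and 10.28 in Brain, and KHDRBS3, a splicing factor of neurons and glia, read 6.74, 7.37 and 6.92 in SKN and 9.37, 9.29 and 9.18 in Brain. Their differences were -2.53 ± 0.17 and -2.27 ± 0.21. PTBP1, the non-neural form, read 9.84, 9.47 and 9.71 in SKN and 10.32, 9.53 and 9.79 in Brain and was not called (95% interval -0.65 to 0.24). RBMS2 was higher by 2.72 ± 0.33 and RBPMS, which promotes smooth muscle splicing, by 1.68 ± 0.29. The lower members numbered 15 without Brain 3, 16 without SKN 2 and 12 without SKN 3, and the higher ones 5 without Brain 2. Of 170 C2H2 zinc finger genes, 35 were lower and 7 higher (median difference -0.23). ZNF804A, a gene linked to psychiatric disease, was lower by 3.02 ± 0.16 and ZNF704 by 2.47 ± 0.12, whereas ZNF521 and ZNF423, partners of the early B-cell factors, were higher by 2.33 ± 0.44 and 2.08 ± 0.14. The count of lower zinc finger genes fell to 21 without Brain 2, 19 without Brain 3, 20 without SKN 2 and 23 without SKN 3.

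Proliferation markers were read beside these lists, array by array. The mean of 8 cell cycle markers was 7.33, 3.56 and 4.33 in the SKN arrays and 8.81, 7.50 and 8.30 in the Brain arrays, so that SKN 1 lay near Brain 2 and far above the other SKN arrays. Of these markers 3 were lower in SKN in the fit of all arrays, 8 without SKN 1, 1 without Fibroblast 2, Fibroblast 3 or Brain 2, and 0 without Brain 1, Brain 3, SKN 2 or SKN 3. MKI67, the proliferation antigen, read 9.06, 3.85 and 5.22 in SKN and 10.38, 9.33 and 10.07 in Brain and was not called. Among the SKN arrays, SKN 1 also had the highest mean of the histone and DNA modifying list, 6.34 beside 6.25 and 6.22, and of the RNA-binding list, 6.87, 6.73 and 6.78. Among the Brain arrays the orders differed. Brain 1 had the highest cell cycle mean but the lowest mean of the histone and DNA modifying list, 6.76 beside 6.79 and 6.80. The RNA-binding list averaged 7.05, 7.03 and 7.08 in the Brain arrays, and the zinc finger list 5.85, 5.94 and 5.93. How far the lists depend on proliferation was not tested. Among 78 kinesins and dyneins 12 were lower and 4 higher, the lower ones led by the mitotic kinesins KIF15 (-3.30 ± 0.79) and KIF14 (-2.65 ± 0.73). KIF15 read 6.26, 3.27 and 3.97 in SKN and 8.20, 7.14 and 8.05 in Brain. Its call ended without Brain 1, Brain 3, SKN 2 or SKN 3 (adjusted p up to 0.0858), and that of KIF14 in 7 of the 9 removals (up to 0.135). The SKN 1 value of KIF15 was closer to the Brain arrays than to the other SKN arrays, and the count of lower kinesins and dyneins was 7 without Brain 3, SKN 2 or SKN 3.

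Targets of the tumour suppressor p53 and inhibitors of cyclin-dependent kinases were more often higher. Of 33 measured, 14 were higher and 4 lower, and the median difference was 0.40. CDKN1A, the p21 inhibitor of the cell cycle that p53 induces, read 9.09, 9.56 and 9.08 in SKN and 8.21, 6.77 and 6.83 in Brain, and differed by 1.97 ± 0.35. SESN2, a stress-induced regulator of growth signalling, read 7.02, 6.85 and 7.16 in SKN and 5.18, 4.65 and 4.49 in Brain, and differed by 2.24 ± 0.23. The RNA-binding target ZMAT3 was higher by 1.80 ± 0.25. Within the inhibitors the direction was mixed. CDKN2C, the p18 inhibitor, read 6.50, 4.47 and 4.99 in SKN and 8.82, 7.81 and 8.13 in Brain, and CDKN1B, the p27 inhibitor, was lower by 0.78 ± 0.10. CDKN1A was thus higher in SKN, and CDKN2C and CDKN1B were lower.

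**Figure D3:**
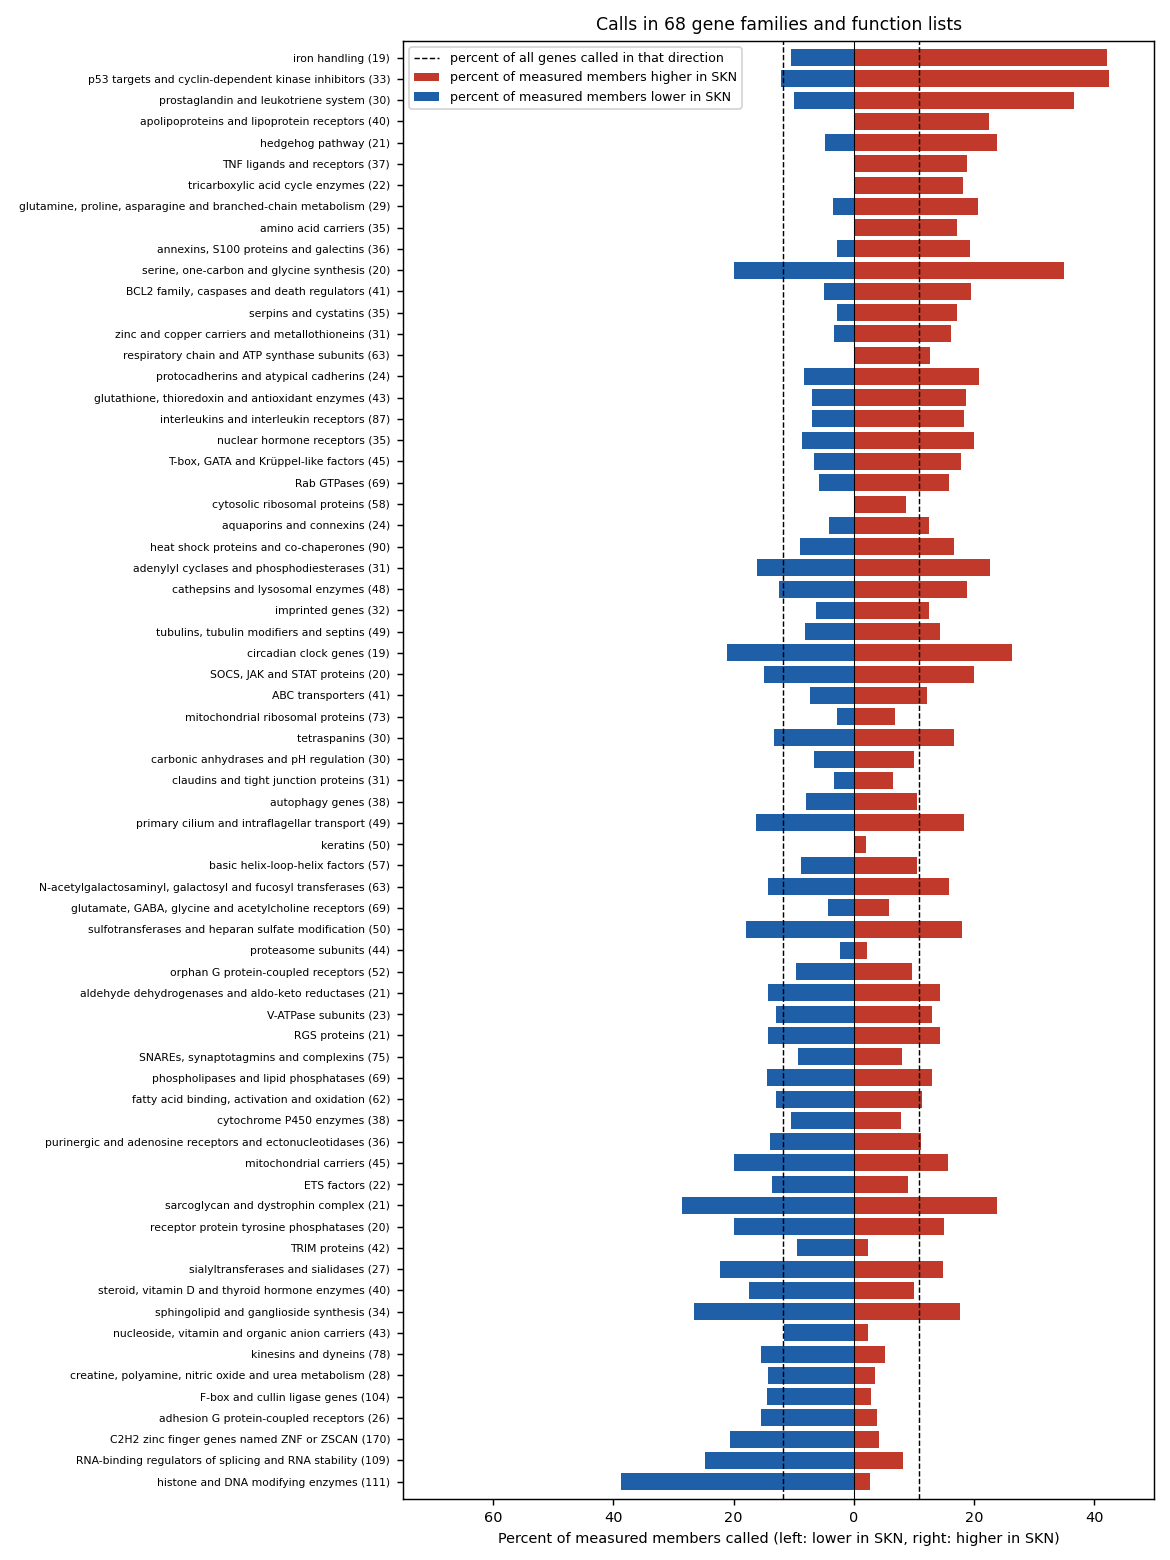
Percent of measured members called higher (red, to the right) and lower (blue, to the left) in SKN for 68 families and function lists, with the number measured in brackets. Dashed lines mark the shares over all genes, 10.9% and 11.7%. Iron handling and p53 targets reach furthest right, and histone and DNA modifying enzymes furthest left.

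Lists of lipid and cytokine signalling were read against the 22.6% of all genes called. The prostaglandin and leukotriene system had 11 higher and 3 lower members out of 30 (46.7% called). The 3 lower members included both prostaglandin D synthases. HPGDS, the haematopoietic form, read 1.68, 1.88 and 2.11 in SKN and 7.45, 7.79 and 7.19 in Brain, and PTGDS, the brain or lipocalin form, read 5.28, 4.63 and 5.40 in SKN and 9.05, 8.48 and 7.87 in Brain. PTGDR, the receptor for prostaglandin D2, had the opposite pattern and read 8.10, 7.87 and 7.98 in SKN and 2.58, 2.89 and 3.38 in Brain. The differences were -5.58 ± 0.19 for HPGDS, -3.37 ± 0.31 for PTGDS and 5.03 ± 0.25 for PTGDR. PTGS2, the inducible cyclooxygenase, read 8.28, 6.47 and 6.02 in SKN and 3.38, 2.93 and 4.62 in Brain, and differed by 3.28 ± 0.62. The prostaglandin F receptor PTGFR was higher by 3.56 ± 0.21 and the lipoxygenase ALOX15 by 3.20 ± 0.59, while HPGD, which inactivates prostaglandins, was lower by 2.84 ± 0.59. SKN thus carried more RNA of the cyclooxygenase and of receptors, and less of the D synthases and of the inactivating enzyme.

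Interleukins and their receptors counted 16 higher and 6 lower of 87, a share of 25.3% that lies near the 22.6% over all genes. OSMR, the receptor subunit for oncostatin M, read 9.77, 7.76 and 9.27 in SKN and 3.07, 3.35 and 3.68 in Brain, and differed by 5.57 ± 0.49. IL1R1, the signalling receptor of interleukin 1, read 9.70, 8.79 and 8.31 in SKN and 3.81, 4.14 and 4.10 in Brain, and differed by 4.92 ± 0.42. Its co-receptor IL1RAP went the other way and read 5.65, 6.26 and 6.43 in SKN and 8.68, 9.87 and 9.58 in Brain, a difference of -3.26 ± 0.38. The related synaptic proteins IL1RAPL1 and IL1RAPL2 were also lower, by 1.93 ± 0.35 and 3.86 ± 0.78. IL7, a growth factor of lymphocytes, read 7.66, 6.79 and 6.13 in SKN and 2.06, 2.50 and 2.01 in Brain, and the IL-13 receptor subunit IL13RA1 read 9.73, 9.70 and 9.32 in SKN and 2.95, 3.26 and 6.46 in Brain. Both were called higher, by 4.67 ± 0.36 and 5.36 ± 0.79, although Brain 3 stood 3.35 log2 units above the mean of the other Brain arrays in IL13RA1. The other probe set of IL13RA1 differed by only 1.56. Of 37 TNF ligands and receptors 7 were higher (18.9%, against 10.9% of all genes) and 0 lower, with 30 not called. These were led by the ligands TNFSF18 (3.86 ± 0.51), TNFSF10, also called TRAIL (3.39 ± 0.56), and TNFSF15 (2.81 ± 0.57).

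The hedgehog pathway, which patterns neural tube and hair follicle, had 5 of 21 members higher and 1 lower (2 without SKN 1). The 4 largest increases were in the co-receptors CDON (3.25 ± 0.26) and GAS1 (1.02 ± 0.13), the ligand-releasing protein SCUBE2 (2.38 ± 0.15) and the transcription factor GLI2 (2.17 ± 0.40). SMO, the transducer, was lower by 0.96 ± 0.14, and neither the receptor PTCH1 nor GLI3 was called. Purinergic signalling was split between higher and lower members. The ATP-gated channel P2RX7 read 3.57, 4.41 and 3.53 in SKN and 7.13, 8.52 and 8.03 in Brain, and the adenosine receptor ADORA2B read 7.73, 7.81 and 8.56 in SKN and 4.96, 5.09 and 5.55 in Brain. P2RX7 was lower by 4.06 ± 0.38 and ADORA2B higher by 2.83 ± 0.33. ENPP2, which makes lysophosphatidic acid, read 5.04, 5.17 and 4.04 in SKN and 10.96, 10.94 and 10.95 in Brain, a difference of -6.20 ± 0.27. Of 26 adhesion G protein-coupled receptors 19.2% were called, near the share over all genes. Among them 4 were lower, the latrophilins ADGRL3 (-3.86 ± 0.57), ADGRL2 (-2.30 ± 0.39) and ADGRL1 (-1.43 ± 0.27) and the migration receptor ADGRG1 (-2.08 ± 0.29). All 3 latrophilins, receptors for teneurins on neurons, were thus lower in SKN, and 1 adhesion receptor, ADGRG4, was higher by 0.64 ± 0.17, a call that ended in 5 of the 9 removals of an array, each Brain array, SKN 2 and SKN 3, with an adjusted p of up to 0.112.

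Lists of lipid and glycan metabolism held members called in each direction. In sphingolipid and ganglioside synthesis 6 of 34 members were higher and 9 lower. UGT8, which makes galactosylceramide for myelin, and GAL3ST1, which turns it into sulfatide, were both lower in SKN. GAL3ST1 read 3.30, 2.73 and 2.86 in SKN and 6.41, 5.66 and 7.72 in Brain, a difference of -3.64 ± 0.45, and CERS1, the ceramide synthase of neurons, was lower by 2.93 ± 0.31. GALC, the lysosomal enzyme that degrades galactosylceramide, was lower too (by 1.63 ± 0.24). Of the same pathway, the serine palmitoyltransferase subunit SPTLC3 was higher by 2.15 ± 0.39 and the ceramide synthase CERS4 by 1.37 ± 0.16. Among glycosyltransferases, B4GALT6, which makes lactosylceramide, read 2.13, 2.15 and 2.27 in SKN and 8.12, 7.93 and 5.71 in Brain, and ST6GAL1, which adds terminal sialic acid to glycoproteins, read 4.96, 3.67 and 4.41 in SKN and 9.14, 9.44 and 9.84 in Brain. Both were lower in SKN, by 5.07 ± 0.55 and 5.13 ± 0.75. Sulfation genes balanced at 9 higher and 9 lower of 50. SULF1, an enzyme that removes sulfate from heparan sulfate, was higher by 4.68 ± 0.81. Its Brain arrays read 3.96, 3.78 and 7.17, with Brain 3 well above the others. NDST3 and CHST9, which add sulfate to sugars, were lower by 3.27 ± 0.43 and 3.70 ± 0.80.

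Lipid carriers were more one-sided. Of 40 apolipoproteins and lipoprotein receptors 9 were higher and 0 lower (1 without SKN 1 or SKN 2), and 31 were not called. CLU, a secreted chaperone also called apolipoprotein J, read 9.58, 10.47 and 10.37 in SKN and 6.54, 4.81 and 4.88 in Brain, and differed by 4.73 ± 0.49. APOE, the lipid carrier made by astrocytes in brain, read 8.56, 10.03 and 10.45 in SKN and 5.26, 5.20 and 5.48 in Brain, and differed by 4.37 ± 0.45. The endocytic receptor LRP1 read 10.48, 10.54 and 10.20 in SKN and 7.55, 7.86 and 7.36 in Brain. CLU, APOE and LRP1 thus stood higher in every SKN array than in any Brain array. FABP5, the fatty acid binding protein of skin and of neural precursors, read 1.40, 1.43 and 1.23 in SKN and 5.97, 5.62 and 5.20 in Brain. It had the lower signal in SKN, by 4.24 ± 0.21.

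Iron handling had 8 of 19 members higher and 2 lower. The list's median difference was 0.23 against 0.01 over all genes. STEAP2 and STEAP1, which reduce iron and copper for uptake, differed by 4.68 ± 0.56 and 3.32 ± 0.37. STEAP2 read 6.77, 8.40 and 7.22 in SKN and 3.08, 2.50 and 2.75 in Brain. SLC40A1, the only known iron exporter, read 7.48, 5.32 and 5.62 in SKN and 3.48, 3.58 and 4.05 in Brain, and CYBRD1, a ferric reductase, was higher by 2.25 ± 0.27. HFE, the haemochromatosis protein, read 4.93, 5.82 and 5.04 in SKN and 6.96, 7.50 and 6.84 in Brain and was lower. The light ferritin chain FTL and the transferrin receptor TFRC were not called. Higher members numbered 5 without Brain 2, SKN 2 or SKN 3. Of 35 amino acid carrier genes 6 were higher and 0 lower. SLC38A5, a glutamine carrier, read 9.76, 9.45 and 9.57 in SKN and 3.97, 3.48 and 3.60 in Brain, and SLC7A11, which imports cystine for glutathione, read 8.47, 8.27 and 8.55 in SKN and 3.68, 3.05 and 4.33 in Brain. Both were higher in SKN, by 5.91 ± 0.17 and 4.74 ± 0.28.

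Serine and one-carbon metabolism had 7 of 20 members higher and 4 lower. PSPH and PSAT1 of serine synthesis were higher by 1.58 ± 0.18 and 1.45 ± 0.13, and the mitochondrial folate enzyme ALDH1L2 by 1.58 ± 0.12. SHMT1, the cytosolic enzyme that passes a carbon from serine to folate, was lower by 2.24 ± 0.30 and the glycine-cleaving GLDC by 1.61 ± 0.22. ASNS, the asparagine synthetase, read 9.68, 9.61 and 10.02 in SKN and 8.25, 6.44 and 7.75 in Brain and differed by 2.29 ± 0.40. In creatine synthesis GATM, the first enzyme, read 2.58, 2.74 and 2.77 in SKN and 7.43, 6.98 and 7.59 in Brain. Its difference was -4.64 ± 0.57, and GAMT, the second enzyme, was not called.

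Transcription factors outside the neural markers included the T-box family. Of 45 T-box, GATA and Krüppel-like factors 8 were higher and 3 lower. TBX18, a mesenchymal factor of dermal papilla and pericytes, read 8.01, 7.86 and 8.53 in SKN and 2.88, 2.21 and 4.03 in Brain, and differed by 5.10 ± 0.43. TBX15, a factor of dermis and limb, read 7.87, 7.14 and 7.55 in SKN and 3.95, 3.70 and 3.49 in Brain, and differed by 3.80 ± 0.25. TBX3 and TBX5 were higher by 2.35 ± 0.17 and 2.05 ± 0.22. KLF11 was lower by 1.70 ± 0.23. These genes were named for the size of their called differences, so they do not describe the T-box family as a whole. Among the ETS family, ETS1 was lower by 2.61 ± 0.20 and ERG higher by 2.51 ± 0.20. The circadian list had 5 of 19 members higher and 4 lower. ARNTL2 and its paralogue ARNTL, partners of CLOCK, were higher by 4.24 ± 0.49 and 1.28 ± 0.11, NPAS2, which can replace CLOCK, was lower by 1.33 ± 0.25, and CLOCK itself was not called.

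Many families held members called in opposite directions. Over all genes 10.9% were called higher and 11.7% lower, so calls both ways within a list are not by themselves a trait of the family. The genes below were chosen by the size of their difference each way. In the dystrophin complex, which ties the cytoskeleton to laminin, SNTB1 read 5.14, 4.85 and 5.12 in SKN and 10.26, 10.14 and 10.15 in Brain, a difference of -5.15 ± 0.19. Its paralogue SNTB2 read 8.73, 8.73 and 8.87 in SKN and 7.10, 6.71 and 7.21 in Brain, a difference of 1.77 ± 0.14. The dystrobrevin DTNA, found in astrocytes and muscle, was lower by 3.83 ± 0.32 and the laminin chain LAMA2 higher by 2.74 ± 0.35. Among tetraspanins TSPAN15, a regulator of the protease ADAM10, read 3.14, 3.49 and 3.33 in SKN and 10.40, 9.13 and 9.15 in Brain. TSPAN5, another regulator of ADAM10, read 9.41, 9.49 and 8.66 in SKN and 5.92, 5.69 and 5.78 in Brain. The former was lower by 6.24 ± 0.37 and the latter higher by 3.39 ± 0.33. The transporters ABCA9 and ABCB4, the second a phospholipid carrier of bile, differed by 4.03 ± 0.25 and -4.75 ± 0.54. The small heat shock genes HSPB8 and HSPB1 were higher by 4.38 ± 0.35 and 1.74 ± 0.27, and their relative CRYAB, known in glia, was lower by 2.79 ± 0.42. Of 69 receptor genes for glutamate, GABA, glycine and acetylcholine, 62 were not called. Of the exceptions GABRE, a GABA receptor subunit, read 8.50, 7.74 and 8.16 in SKN and 4.05, 3.98 and 4.05 in Brain, and GRIA4, an AMPA receptor subunit, read 2.97, 3.72 and 2.82 in SKN and 7.71, 7.53 and 5.13 in Brain. GABRE was higher by 4.11 ± 0.20 and GRIA4 lower by 3.62 ± 0.62, the latter with Brain 3 well below the other Brain arrays.

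**Figure D4:**
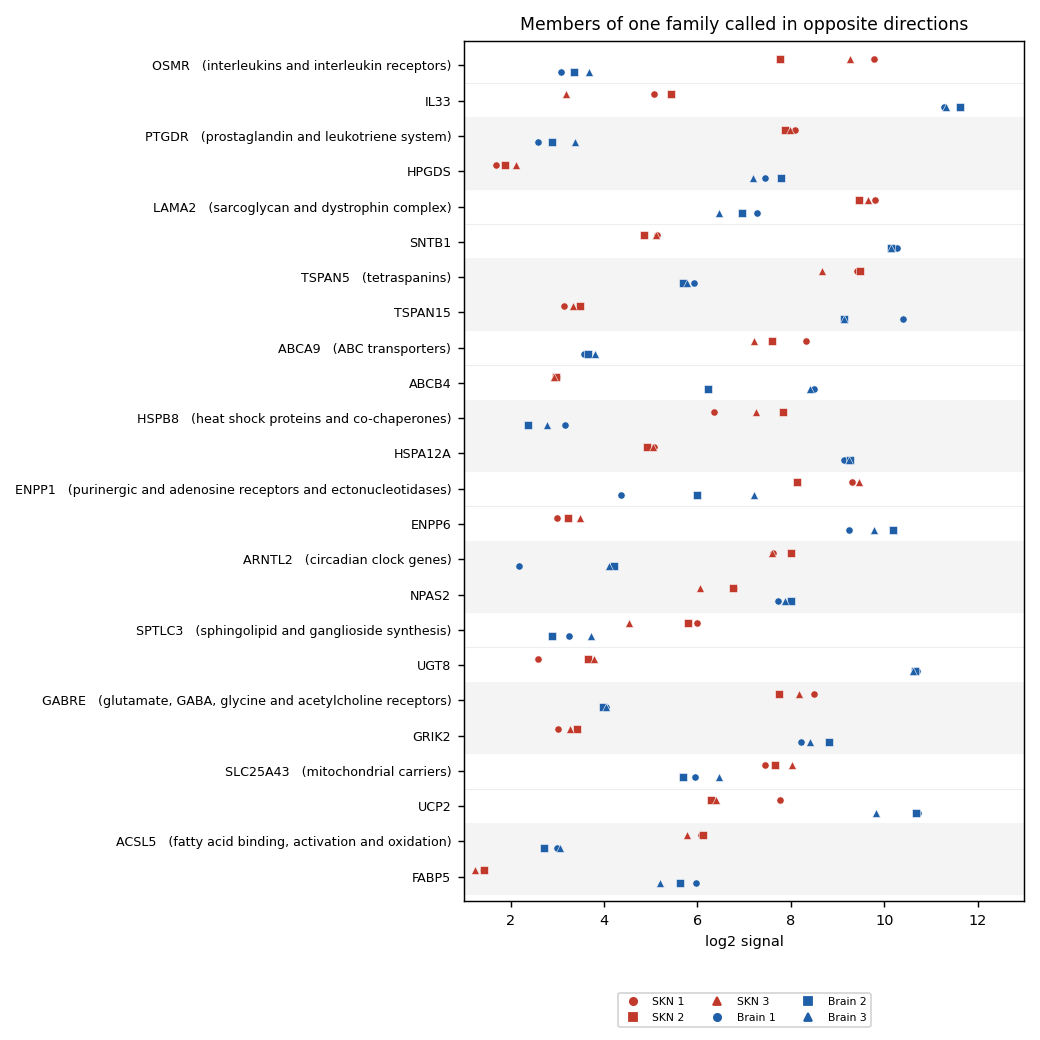
Log2 signal in each SKN (red) and Brain (blue) array for the most strongly higher and the most strongly lower called member of 12 families, with circles, squares and triangles for replicates 1, 2 and 3. In each family the upper gene is higher in SKN and the lower gene is higher in Brain, as the choice of the genes requires.

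Of 58 cytosolic ribosomal proteins 5 were higher and 0 lower (8.62% called, median difference 0.22), and all 5 lost the call in at least 1 removal of an array, with 0 left called without Brain 2 or without SKN 2. Of 44 proteasome subunits 1 was higher (2 without Fibroblast 2) and 1 lower, and of 63 respiratory chain subunits 8 were higher and 0 lower (12.7%, against 10.9% of all genes called higher). The 8 became 5 without Brain 2 or SKN 2, 14 with the dimmer probe sets left out and 13 with the mean of a gene's probe sets. Among genes whose 95% interval lay within 1 log2 unit of 0, the cytoskeletal genes VIM, ACTB and CFL1 differed by -0.08 ± 0.08, -0.10 ± 0.11 and -0.12 ± 0.10. SPARC, a matrix protein that both kinds of culture carried, differed by -0.03 ± 0.10 (95% interval -0.27 to 0.21). These intervals bound the difference, and do not show that the levels were equal.

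Consistency of single arrays was read by leaving an array out, calling genes without it, and measuring how far it lay from the mean of its own group toward that of the other, in percent of the distance. The median position over the genes called was 17.12% for SKN 1, 2.08% for SKN 2 and -0.66% for SKN 3. It was 7.93% for Brain 1, 1.51% for Brain 2 and 8.30% for Brain 3. SKN 1 therefore lay nearest to the other group, and it passed the midpoint in 18.7% of the 3399 genes called without it. Brain 3 passed the midpoint in 8.40% of 2739 genes and Brain 1 in 16.2%. The median position of Brain 3 was thus close to that of Brain 1, and Brain 3 passed the midpoint in a smaller share of genes. Brain 3 read at least 2 log2 units above the mean of the other Brain arrays in 66 genes and at least 2 below it in 17. Counted in the same way within their groups, Brain 1 had 34 above and 60 below, Brain 2 had 12 and 31, and SKN 1 had 96 and 29. Departures of this size were thus not particular to Brain 3.

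Contractile and matrix genes were among those that Brain 3 read furthest above the other Brain arrays. ACTA2, smooth muscle actin, read 10.49, 10.83 and 11.27 in SKN and 4.19, 3.85 and 9.59 in Brain. ACTG2, a second smooth muscle actin, read 9.57, 10.80 and 10.62 in SKN and 5.01, 3.86 and 9.43 in Brain, and TPM2, a tropomyosin, read 11.11, 11.16 and 11.48 in SKN and 4.36, 4.61 and 8.95 in Brain. In these 3 genes Brain 3 lay nearer to the SKN arrays than to the other Brain arrays. Brain 3 also exceeded the mean of the other Brain arrays by 4.25 in CCN2, a matrix growth regulator, by 3.36 in DCN, a small proteoglycan, by 3.28 in CDH11, a mesenchymal cadherin, and by 3.33 in RGS5, a pericyte marker. The excess was not shared by every matrix gene. POSTN read 2.76 in Brain 1, 2.99 in Brain 2 and 3.05 in Brain 3, and FAP, a stromal protease, read 2.77, 2.64 and 3.13. Over the 10 fibroblast and meningeal matrix markers the mean was 5.60, 5.72 and 7.42 in the Brain arrays and 11.28, 11.10 and 11.15 in the SKN arrays. Genes that Brain 3 read below the others included the calcium channel CACNA1A, the Notch ligand DNER and the gap junction gene GJA1, by 3.07, 3.03 and 2.88. The source of these departures of Brain 3 was not tested.

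**Figure D5:**
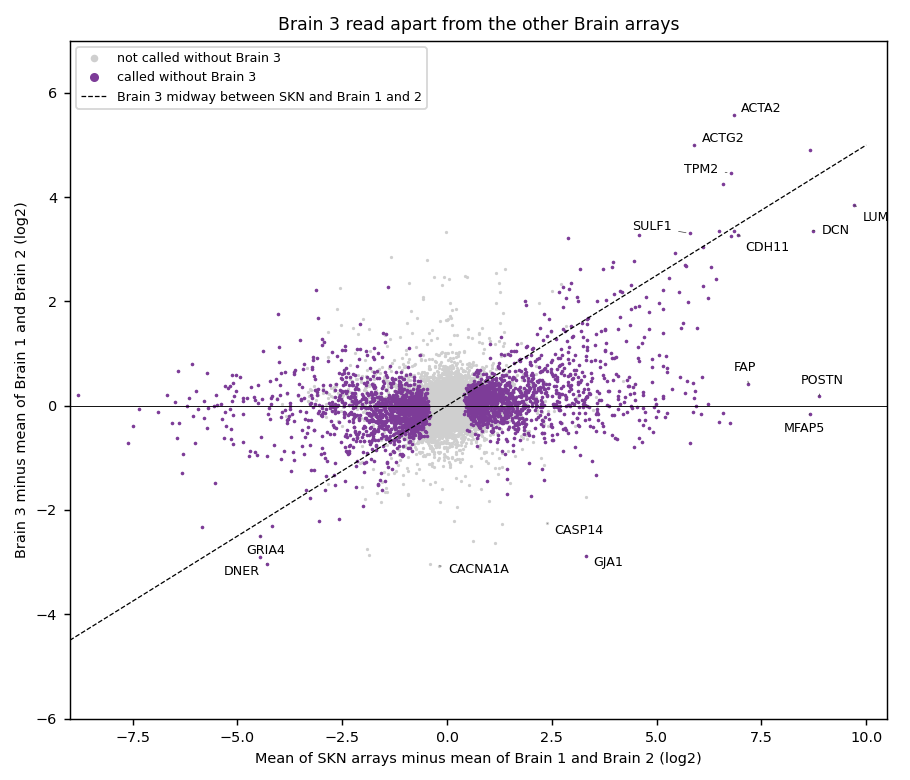
For each of 15947 genes, the SKN mean minus the mean of Brain 1 and Brain 2 (horizontal, log2) and Brain 3 minus the mean of Brain 1 and Brain 2 (vertical, log2), with purple for genes called without Brain 3. ACTA2, ACTG2 and TPM2 lie above the dashed midway line, while POSTN, MFAP5 and FAP lie near 0 on the vertical axis.

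Without Brain 3, 2739 genes were called (17.2%), 1374 higher (8.62%) and 1365 lower (8.56%). ACTA2 was called in the fit of all arrays (adjusted p = 0.032) and lost that call in 8 of the 9 removals (up to 0.1), but not without Brain 3, where its difference grew from 4.99 ± 1.29 to 6.84. GRIA4 differed by -3.62 ± 0.62 with Brain 3 and by -4.45 without it. For SKN, the single genes that departed most were proliferation genes in SKN 1, led by MKI67 and the condensin gene NCAPG, which read 7.76, 2.67 and 4.35 in SKN and 8.81, 7.57 and 8.51 in Brain and was not called.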

How the data were processed

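RNA of 9 dog cultures was labelled as biotinylated cRNA and hybridised to Affymetrix arrays. The deposited table holds 1 value per probe set and array, taken here as log2 signals and used as the authors deposited them. MAS5, RMA and Partek appear in the submitters' processing notes without a stated role or version. The log base was inferred from the range of the values and the near-equal quartiles of the arrays, since no header states it. Names came from the platform's table: 16545 of the 32205 probe sets carried 1 gene symbol, 370 several and 15290 none. Each of the 15947 genes was read from 1 probe set, the one highest on average in the 9 arrays (516 had several). Of 147 called genes with several probe sets, 1 (CANT1) had another probe set called in the opposite direction. In some others the probe sets differed in size or sign without such a call. In GJA1, for example, the probe set used differed by 4.28 and the other by -0.34. RefSeq's gene table (UU_Cfam_GSD_1.0) held 15820 of the gene identifiers and served for names and gene order only. There are no detection calls, so low signals are not read as absence, and signals of different probe sets are not compared. Precision is limited by the 3 arrays per group.

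limma 3.58.1 in R 4.3.3 fitted 1 coefficient per group to all 9 arrays (6 residual degrees of freedom, eBayes without trend, 2-sided, Benjamini-Hochberg over all probe sets). Alternatives changed the arrays, the moderation, the weights, the scaling, the filter, the probe sets and the adjustment. One gene list is not reported here. Lists, comparison and naming rules were chosen with earlier results of these data known, and support nothing by themselves. Named genes are the 30 of each direction with the widest gap between the nearest arrays, per list up to 4 called in each direction and up to 3 not called, all cell type markers, the 15 genes in each direction with the largest deviation of Brain 3, the 15 with the highest mean whose interval lay within 1 log2 unit, and the 10 in each direction with the largest deviation of 1 SKN array. No label says whether the replicate numbers pair the samples. Deviations of same-numbered SKN and Brain arrays from their group means correlated at 5e-04, 0.0659 and -0.0134. Those of unlike numbers correlated at -0.0807 to 0.0801. With 3 arrays per group these values cannot settle whether samples were paired. Summaries used Python 3.11.15 with pandas 2.3.3.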

Additional observations from a re-analysis of the deposited data

How the results depend on the processing

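Genes called between SKN and Brain numbered 3608, and 2461 to 3399 when 1 of the 9 arrays was left out, with 1267 to 1681 higher and 1194 to 1763 lower. The lowest count of lower genes, 1194 against 1864, came without SKN 3. With the replicate number as a block 3392 were called, 1618 higher and 1774 lower, although no label says that the numbers pair the samples. The other settings gave 2785 (no variance moderation) to 4435 (array weights). Quantile normalization gave 3589. Of 796 named genes 523 were called, and none of those reversed its direction in the alternatives run. Without moderation 108 of them lost the call, and without Brain 3, 83 did. Of 162 counts of list members called in 1 direction, 69 moved by more than 1.5 times in at least 1 removal of an array, and the text gives the moves of those it prints. A group of 3 arrays limits what can be called, so genes not called may still differ.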

Other observations

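The olfactory receptor genes were looked at after OR5AP2 appeared among the leading genes, so the group below was chosen after its values were seen. Of 550 olfactory receptor genes on the array 1 was higher in SKN and 7 were lower (1.45% called, against 22.6% of all genes), and the median difference was -0.01. OR5AP2 read 1.70, 2.27 and 2.00 in SKN and 8.84, 7.76 and 7.37 in Brain, and it was lower in SKN by 6.00 ± 0.75 (adjusted p = 0.00103 in limma's fit). OR5AR1, the next gene along from OR5AP2 in the reference table, read 6.12, 4.68 and 3.88 in Brain against 2.59, 3.01 and 2.59 in SKN. OR2AH1B, 2 genes along, read 5.57, 4.43 and 3.38 in Brain against 1.52, 1.73 and 1.65 in SKN. In all 3 genes Brain 1 read highest and Brain 3 lowest of the Brain arrays. In OR5AP2 Fibroblast 1 read 5.08, and Fibroblast 2 and Fibroblast 3 read 2.18 and 2.15. Signal between or across neighbouring members of this family and signal from the genes themselves were not told apart.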
